A study of Homo sapiens with 2 samples.

Results

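The genes examined here were 10 genes best known from neurons: NEFL, NEFM, STMN2, GAP43, CALB1, CALB2, LRRTM3, EPHA5, ASIC1 and NKAIN4. They are 10 of the 33694 genes counted in each library, and each was found by its symbol. They were selected on their RNA levels in beta cell subtypes of these same libraries, so their differences between beta-like clusters are given as a description, with no test. The study asked what the loss of the transcription factor SOX9 does to human beta cells made from stem cells. Both libraries came from the iSOX9KO line, an established human embryonic stem cell line (Mel1-INS-GFP, with GFP at the insulin gene) that always expresses guides against SOX9 and carries a doxycycline (DOX)-inducible Cas9 at the AAVS1 locus. Cells of 1 library had no DOX, and cells of the other had DOX at 2 ug/ml from day 12 of the differentiation. By the methods, the clusters of beta cells (eBCs) were formed again from live, strongly GFP-positive cells, sorted when DOX treatment was already under way, so cells with little insulin reporter were selected against in both. There was 1 library per condition and no replicate. Differences between conditions were therefore not tested, and intervals (95%) cover counting error only.

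Neurofilaments are the intermediate filaments of axons, built from a light chain (NEFL), a medium chain (NEFM) and a heavy chain that assemble together. Pancreatic endocrine cells share a large set of genes with neurons, among them genes for regulated secretion and electrical excitability, although they come from another germ layer. Repression of many such genes outside neurons is attributed to the factor REST, which binds the RE1 element.

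The library labelled no DOX held 30288 cell barcodes and that labelled DOX held 31817, of which 369 barcode sequences occurred in both. After a minimum of 1000 unique molecular identifiers (UMIs) and removal of doublets, 21808 and 23118 cells remained, with medians of 13958 and 12667 UMIs per cell. SOX9 RNA was not reduced with DOX over all cells, with 2.998 CPM without and 3.778 CPM with DOX, by the labels. The duct-like cluster held 641 of the 946 and 862 of the 1147 SOX9 UMIs. In the beta-like clusters SOX9 was at 0.313 and 0.207 CPM, from 41 and 32 UMIs, a log2 ratio of -0.595 (-1.31 to 0.11). The study reported reduced SOX9 protein in DOX-treated cells of this line, measured apart from these libraries. Where the counted tags lie relative to the guide sites was not examined, so the RNA levels were not taken as a check of the labels. Each library is called by its label, and every direction between the libraries given here rests on labels that these values do not check and would turn if they were exchanged. Alpha-like cells made up 20.1% of cells without and 15.8% with DOX, and delta-like cells 11.6% and 7.95%. The cells formed 13 clusters, computed without the 10 genes, and 12 clusters held at least 50 cells in each library. Of the 4 beta-like clusters, 1 was Beta-2-like (4376 cells) and 3 were Beta-1-like. The Beta-1-like clusters are called by their leading genes GHRH (6018 cells), MFAP4 (3098 cells) and MT1B (2976 cells), the last led by stress-responsive metallothionein genes. A cluster led by GPC3 (2858 cells) had INS RNA but no name from the fixed markers. The clusters called mitochondria-rich and alpha-like shallow had medians of 1991 and 2792 UMIs per cell, far below the other 10 clusters of at least 50 cells per library, and their values are given where they matter. Levels are given as CPM, the UMIs of a gene in all cells of a cluster for every 1000000 UMIs of those cells.

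The selected genes did not share 1 pattern over the clusters. In both libraries 7 of 10 were highest in the Beta-2-like cluster (NEFL, NEFM, CALB2, LRRTM3, STMN2, NKAIN4 and ASIC1), where 2.53% of the 12775 genes measured were. By contrast with the pooled Beta-1-like cells, 6 of the 9 with at least 5 CPM in either group were at least 2-fold higher in Beta-2-like cells in both libraries (CALB2, LRRTM3, EPHA5, GAP43, NKAIN4 and ASIC1), against 3.73% of 10138 genes. With the libraries summed this count was 7, with NEFL added at a log2 ratio of 1.01 (0.82 at clustering resolution 0.3 and 2.38 with another seed), against 4.53% of genes, and none of the 9 was at least 2-fold lower, against 1.98%. The median log2 ratio of the 10 was 1.48 and that of all genes tested 0.19. CALB1 was under 5 CPM in both groups and was not counted. Of these 2 groups EPHA5, GAP43 and NKAIN4 reached 5 CPM in Beta-2-like but not in pooled Beta-1-like cells. Since the genes were chosen on levels of this kind, these counts describe the choice. Over other ways of clustering and filtering the cells, the number highest in the Beta-2-like cluster ranged from 5 to 8 and the number 2-fold higher in both libraries likewise from 5 to 8. The latter depended on which Beta-1-like cells were taken, with 3 genes 2-fold higher against the GHRH-led cluster alone, 6 against the MFAP4-led and 9 against the MT1B-led one, each taken with the same minimum.

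**Figure D1:**
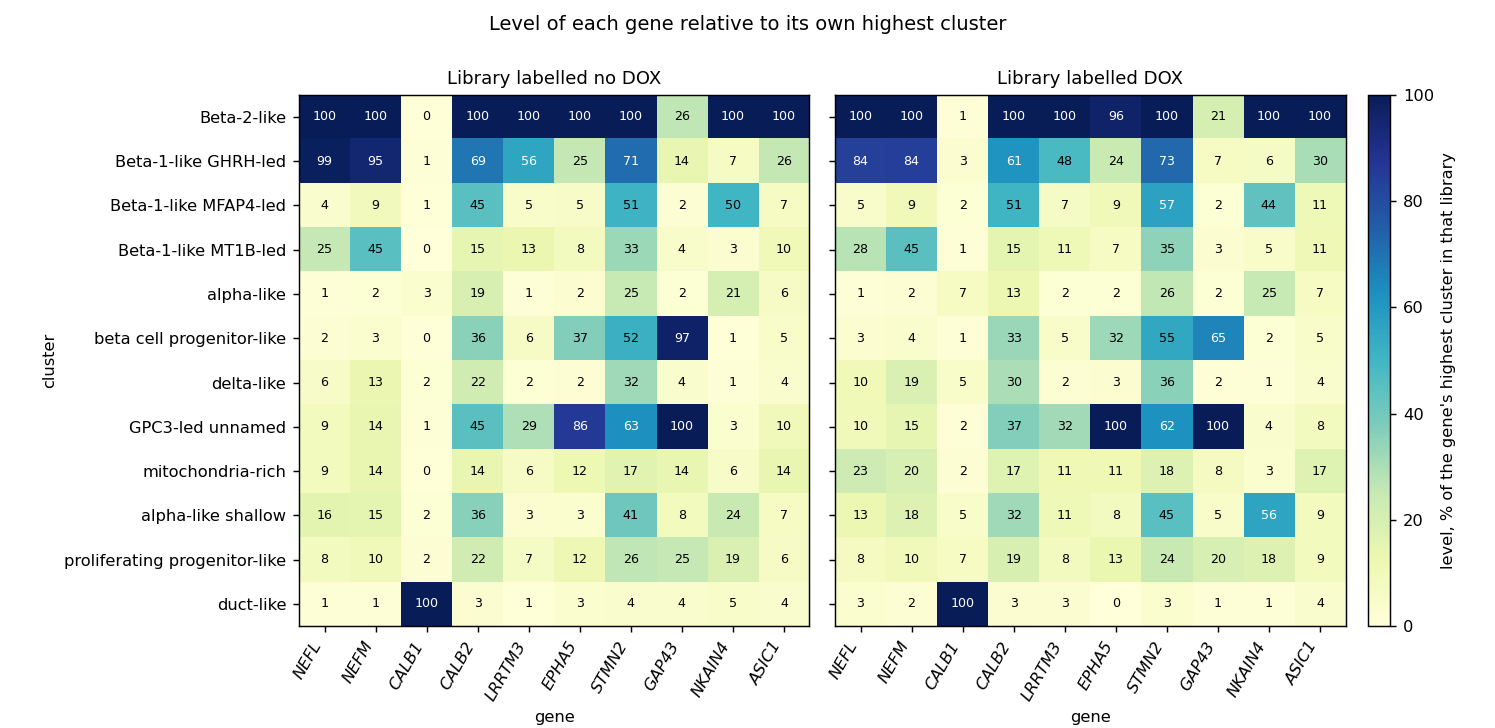
Level of each of the 10 genes (columns) in each cluster of at least 50 cells per library (rows), as a percentage of that gene's own highest cluster in the same library. NEFL and NEFM are high in the Beta-2-like and GHRH-led clusters and low in the MFAP4-led cluster, CALB1 stands out in duct-like cells alone, and GAP43 is highest in the GPC3-led cluster.

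NEFL (chromosome 8 from 24950955 to 24956721, minus strand) and NEFM (chromosome 8 from 24913758 to 24919098, plus strand) lie 31856 bases apart with no annotated gene between them. NEFL was at 784 CPM (no DOX) and 457 CPM (DOX) in Beta-2-like cells. In the GHRH-led Beta-1-like cells it was at 774 and 383 CPM. The MT1B-led cells held 198 and 126 CPM of NEFL, and the MFAP4-led cells only 28.2 and 21.0 CPM. NEFL therefore separated the Beta-1-like clusters from each other more than it separated Beta-2-like from GHRH-led cells. Between the GHRH-led and MFAP4-led clusters the log2 ratio was 4.78 in the library without DOX and 4.19 in that with DOX. Between the Beta-2-like and GHRH-led clusters it was 0.02 and 0.25.

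NEFM followed the same order. Its levels without and with DOX were 3517 and 2597 CPM in Beta-2-like cells. They were 3325 and 2184 CPM in GHRH-led cells and 1584 and 1160 CPM in MT1B-led cells. In the MFAP4-led cells NEFM was at 325 and 246 CPM, below the delta-like cells with 456 and 496 CPM. Outside the beta-like clusters the beta cell progenitor-like cells had 112 and 94.3 CPM and the alpha-like cells 58.2 and 54.7 CPM. The duct-like cells, an epithelial type that should lack neurofilaments, had the lowest NEFM with both libraries summed, at 48.0 CPM. NEFL was lowest in the alpha-like cells, at 7.61 CPM. The alpha-like shallow cells had 512 CPM of NEFM, and the mitochondria-rich cells 505 CPM, and the intervals of these neighbours overlapped.

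**Figure D2:**
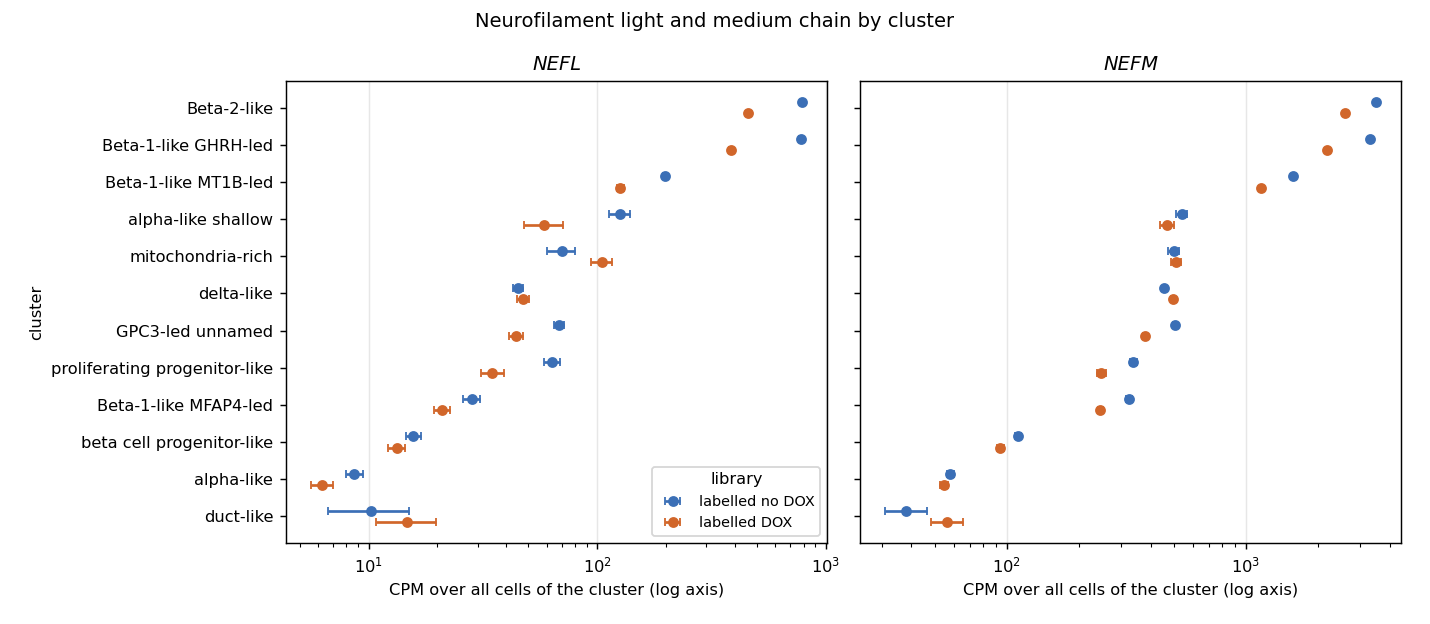
NEFL (left) and NEFM (right) in CPM on a log axis, for each cluster and library, with exact Poisson intervals that are mostly narrower than the points. Beta-2-like, GHRH-led and MT1B-led cells form the upper end for both genes, while MFAP4-led cells sit among the non-beta clusters, at 28.2 and 21.0 CPM of NEFL.

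The mix of both chains also differed between clusters. NEFL took 18.2% (18.0 to 18.4) of the UMIs of NEFL and NEFM in Beta-2-like cells without DOX and 14.97% (14.8 to 15.2) with DOX. In GHRH-led cells it took 18.9% and 14.9%. In MT1B-led cells the share was 11.1% and 9.82%, and in MFAP4-led cells 7.997% and 7.85%. Delta-like cells, with more NEFM than MFAP4-led cells, had shares of 9.01% and 8.72%. Among the beta-like clusters the MT1B-led and MFAP4-led cells, with less NEFM, thus held a smaller share of NEFL. Outside them the share did not follow the level, since the beta cell progenitor-like cells had 12.3% and 12.4%, and the duct-like cells 21.1% (14.3 to 29.4) and 20.7% (15.5 to 26.7) from 26 and 45 UMIs of NEFL.

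**Figure D3:**
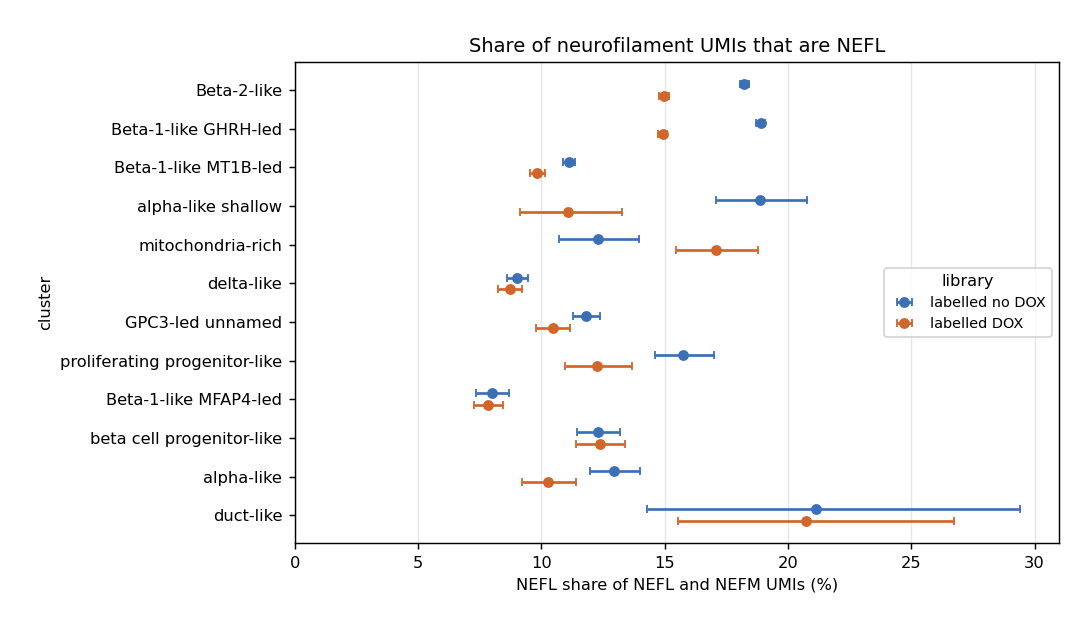
Share of NEFL among the UMIs of NEFL and NEFM for each cluster and library, with exact Clopper-Pearson intervals. Beta-2-like and GHRH-led cells lie together, at 18.2% and 18.9% without DOX and near 15% with DOX, above MT1B-led, delta-like and MFAP4-led cells.

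To compare single cells, each cell was thinned to 5000 UMIs, which left out 102 and 21 Beta-2-like cells below that depth. Of Beta-2-like cells, 57.0% (54.8 to 59.2) without DOX and 42.8% (40.8 to 44.9) with DOX kept a UMI of NEFL. The corresponding shares were 45.3% and 33.5% of GHRH-led cells, 28.4% and 24.5% of MT1B-led cells and 7.77% and 7.004% of MFAP4-led cells. Of duct-like cells 4.05% (1.502 to 8.62) and 6.21% (3.14 to 10.8) had one, intervals that hold the shares in MFAP4-led cells. By CPM, which uses all UMIs, NEFL was higher in MFAP4-led cells in the library without DOX, at 28.2 (25.8 to 30.8) against 10.2 (6.67 to 14.95) in duct-like cells. With DOX the intervals overlapped, at 21.0 (19.4 to 22.7) against 14.8 (10.8 to 19.7). NEFM was kept by 90.4% and 85.3% of Beta-2-like cells, 86.0% and 77.8% of GHRH-led cells, 82.2% and 77.3% of MT1B-led cells and 43.8% and 42.5% of MFAP4-led cells, against 16.9% and 14.7% of duct-like cells. Without thinning, the NEFL shares were 71.9% and 59.2% in Beta-2-like and 10.4% and 11.2% in duct-like cells, whose median depths were 16894 and 14517 UMIs.

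Within a cluster the neurofilaments were spread very unevenly over cells. In Beta-2-like cells without DOX the median was 1 UMI of NEFL per 5000, the 90th percentile was 11 and the highest cell had 60. For NEFM the 10th percentile, median and 90th percentile were 1, 10 and 40, and the highest cell had 137. With DOX they were 0, 6 and 32, with a highest cell of 134. STMN2 was far more even in the same cells, at 2, 6 and 12 without DOX and 3, 7 and 13 with DOX.

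STMN2 and GAP43 encode growth cone proteins, STMN2 a regulator of microtubules (stathmin family) and GAP43 a membrane-associated protein of growing axons. STMN2 (chromosome 8 from 79611117 to 79666158) was the selected gene found in most Beta-2-like cells, in 98.7% and 99.0% at equal depth. Its level was 1359 and 1544 CPM in Beta-2-like cells without and with DOX. It was 971 and 1121 CPM in GHRH-led, 694 and 875 CPM in MFAP4-led and 443 and 541 CPM in MT1B-led cells. The beta cell progenitor-like cells were at 705 and 846 CPM, above the MT1B-led cells in each library. The duct-like cells were lowest, at 54.9 and 50.2 CPM.

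GAP43 (chromosome 3 from 115623510 to 115721490) was not a gene of beta-like cells in the first place. It was highest in the GPC3-led cluster, at 31.5 CPM without and 44.9 CPM with DOX, and next in the beta cell progenitor-like cells, at 30.5 and 29.3 CPM. Beta-2-like cells held 8.33 and 9.24 CPM, and the 3 Beta-1-like clusters between 0.74 and 4.43 CPM. Thus GAP43 was higher in Beta-2-like than in pooled Beta-1-like cells by a log2 ratio of 1.71 and 2.22, yet lower than in the GPC3-led cluster by log2 ratios of -1.92 and -2.28. At equal depth it was found in 4.20% and 3.22% of Beta-2-like cells and in 8.94% and 14.5% of GPC3-led cells.

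CALB1 and CALB2 encode calbindin and calretinin, related calcium-binding proteins with EF hands that mark different interneurons. The pair had opposite patterns here. CALB1 (chromosome 8 from 90058608 to 90095475) was a gene of the duct-like cells, with 544 CPM without and 196 CPM with DOX, and 69.6% (61.5 to 76.9) and 41.2% (33.9 to 48.9) of those cells had a UMI at equal depth. The alpha-like cells, at 18.3 and 13.3 CPM, and the proliferating progenitor-like cells, at 10.9 and 13.6 CPM, were far below. Beta-2-like cells had 2.32 and 2.19 CPM.

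CALB2 (chromosome 16 from 71358713 to 71390436) was lowest in duct-like cells, at 55.3 and 63.9 CPM, and highest in Beta-2-like cells, at 1871 and 2178 CPM. The GHRH-led cells followed with 1287 and 1328 CPM and the MFAP4-led cells with 842 and 1103 CPM. The MT1B-led cells held only 276 and 334 CPM, less than the beta cell progenitor-like cells with 666 and 721 CPM. Of the Beta-1-like clusters the MFAP4-led one, low in NEFL, thus had more CALB2 than the MT1B-led one, by log2 ratios of 1.61 and 1.72, whereas for NEFL the same ratio was -2.81 and -2.59.

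LRRTM3 is a leucine-rich repeat protein of synapses that binds neurexins, and EPHA5 is a receptor tyrosine kinase for ephrin-A ligands used in axon guidance. LRRTM3 (chromosome 10 from 66926036 to 67101551) was at 62.2 and 52.2 CPM in Beta-2-like cells. It was at 34.7 and 25.1 CPM in GHRH-led, 18.1 and 16.5 CPM in GPC3-led, 8.04 and 5.54 CPM in MT1B-led and 3.003 and 3.42 CPM in MFAP4-led cells. LRRTM3 lies within CTNNA3 on the opposite strand, and another counted gene overlaps it on its own strand. NEFL, NEFM and CALB2 also overlap counted genes on the opposite strand. It was not stated whether the counting used strand. The order of LRRTM3 among the 4 beta-like clusters matched that of NEFL. LRRTM3 was seen in 22.3% and 19.4% of Beta-2-like cells at equal depth, and in 0% (0 to 2.46) and 1.13% of duct-like cells.

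EPHA5 (chromosome 4 from 65319563 to 65670495) was shared between Beta-2-like cells, at 22.7 and 21.0 CPM, and GPC3-led cells, at 19.5 and 21.8 CPM. The intervals of these 2 clusters overlapped when libraries were summed, and which was higher depended on the library. The beta cell progenitor-like cells followed at 8.41 and 6.98 CPM, above the GHRH-led cells at 5.78 and 5.20 CPM. EPHA5 was at 1.25 to 2.04 CPM in MFAP4-led and MT1B-led cells. The antisense gene EPHA5-AS1 overlaps it, and the reads of both cannot be told apart without strand.

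ASIC1 is a proton-gated sodium channel, and NKAIN4 is a membrane protein of a family that interacts with the sodium pump. ASIC1 (chromosome 12 from 50057548 to 50083611) set Beta-2-like cells apart from every Beta-1-like cluster, with 132 CPM without and 125 CPM with DOX. The GHRH-led cells had 34.1 and 37.9 CPM, and all other clusters of at least 50 cells per library lay between 4.71 and 21.8 CPM. The log2 ratio of Beta-2-like over GHRH-led cells was 1.96 and 1.72. ASIC1 was found in 39.6% and 38.8% of Beta-2-like cells at equal depth, and in 13.4% and 13.6% of GHRH-led cells. In duct-like cells it was found in 0.68% and 1.69%.

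NKAIN4 (chromosome 20 from 63240784 to 63272694) was at 30.4 and 28.4 CPM in Beta-2-like cells. Among the Beta-1-like clusters it went with the MFAP4-led rather than the GHRH-led cells, with 15.2 and 12.4 CPM in the former and 2.05 and 1.77 CPM in the latter. The MT1B-led cells had 0.82 and 1.54 CPM. Outside the beta-like clusters, alpha-like shallow cells held 7.42 and 15.9 CPM and alpha-like cells 6.25 and 7.01 CPM. Proliferating progenitor-like cells held 5.63 and 5.09 CPM, also above the GHRH-led and MT1B-led cells. NEFL, LRRTM3 and ASIC1 were instead higher in the GHRH-led than in the MFAP4-led cells. The log2 ratio of GHRH-led over MFAP4-led cells was -2.90 and -2.80 for NKAIN4 and 1.93 and 1.49 for ASIC1. NKAIN4 overlaps FLJ16779 on the opposite strand.

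Promoter sequences were in the RefSeq table (GRCh38.p14) for 4 of the 10 genes, and the 150 bases before the start nearest the annotated 5′ end are shown for these, because they contain both kinds of pattern. LRRTM3 and ASIC1 were highest in Beta-2-like cells, and EPHA5 and GAP43 were also high in the GPC3-led cells. Each is written 5′ to 3′ along the gene, and capitals mark GGACAG, the right core of the RE1 element, where it occurs. LRRTM3 is at chr10:66925886-66926035, ASIC1 at chr12:50058020-50058169, EPHA5 at chr4:65670490-65670639 (minus strand) and GAP43 at chr3:115623360-115623509. The start taken for ASIC1 lies 622 bases inside the annotated gene, so the stretch shown, with its GGACAG, is within that gene. For LRRTM3, EPHA5 and GAP43 the distance to the annotated 5′ end was 0, 6 and 0 bases.
LRRTM3: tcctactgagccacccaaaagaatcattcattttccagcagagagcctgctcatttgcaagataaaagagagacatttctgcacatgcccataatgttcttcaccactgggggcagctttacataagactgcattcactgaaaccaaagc
ASIC1: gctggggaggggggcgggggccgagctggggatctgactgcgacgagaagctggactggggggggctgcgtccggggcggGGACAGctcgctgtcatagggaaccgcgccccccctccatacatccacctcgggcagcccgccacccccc
EPHA5: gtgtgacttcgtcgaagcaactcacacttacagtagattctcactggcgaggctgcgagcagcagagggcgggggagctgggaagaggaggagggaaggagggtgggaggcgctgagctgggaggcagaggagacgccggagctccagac
GAP43: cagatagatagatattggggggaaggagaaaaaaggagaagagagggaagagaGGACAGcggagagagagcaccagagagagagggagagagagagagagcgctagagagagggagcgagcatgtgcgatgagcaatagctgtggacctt
In the 250 bases before every start in the table, GGACAG on either strand occurred at starts of ASIC1 and GAP43. The 4 genes had 8 starts in all, and GGACAG occurred in 17.2% of all 35116 promoters of the table. The left core CAGCACC (6.16% of promoters) and the TATA box letters TATAAA (10.7%) occurred at none of the 4 genes, and the homeobox core TAATTA (4.35%) at EPHA5. The 250 bases before the start held 40.8% G and C at LRRTM3, 51.6% at GAP43, 61.2% at EPHA5 and 71.6% at ASIC1, with 2, 7, 14 and 20 CG dinucleotides, against medians of 58.0% and 11 over the table. These values depend on the start taken, since other starts in the table held 56.8% and 62.8% at ASIC1, with 5 and 4 CG, 75.2% at EPHA5, with 23, and 41.6% at LRRTM3, with 2.

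**Figure D4:**
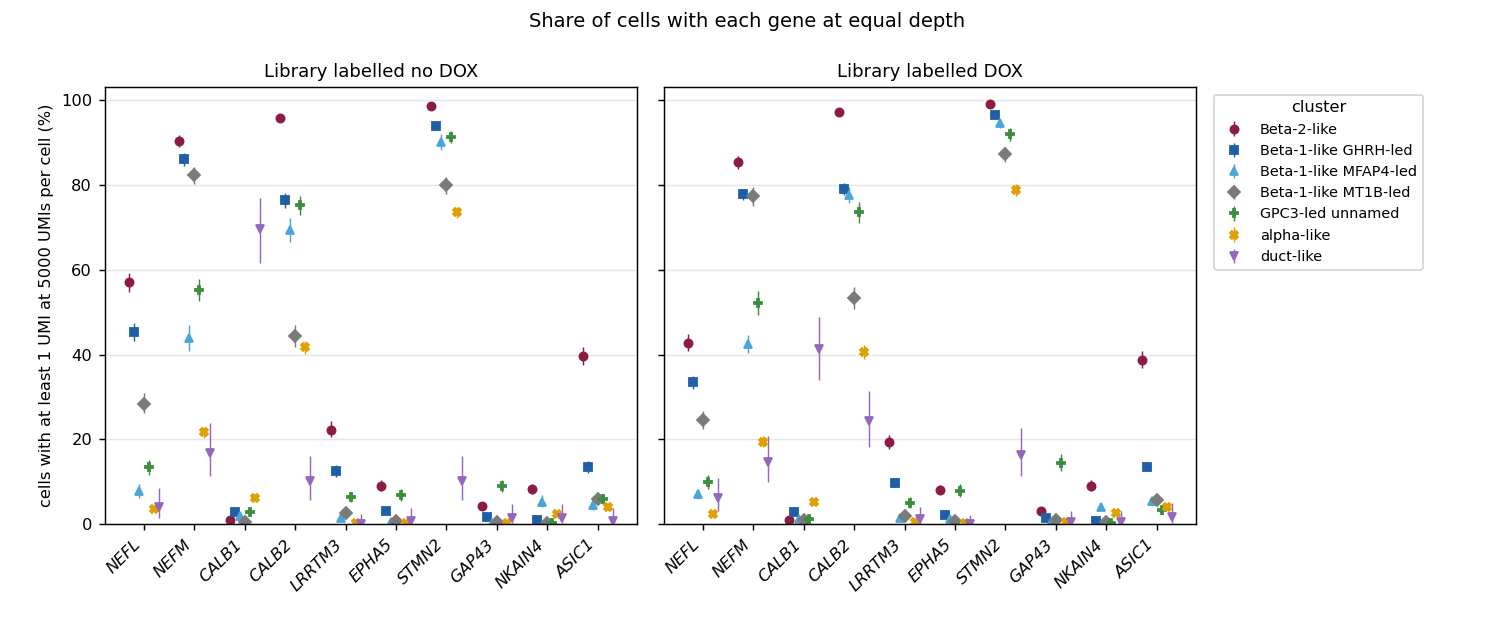
Percentage of cells with at least 1 UMI of each gene after thinning to 5000 UMIs per cell, for the 4 beta-like clusters and for GPC3-led, alpha-like and duct-like cells, with exact Clopper-Pearson intervals. ASIC1 separates Beta-2-like cells, at 39.6% and 38.8%, from GHRH-led cells, at 13.4% and 13.6%, and CALB1 is frequent in duct-like cells alone.

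Single cells held several of these genes at once. In Beta-2-like cells at 5000 UMIs, 37 and 38 of the 45 pairs had at least 10 cells expected from the product of the 2 shares. Over these pairs the median ratio of observed to expected was 1.01 and 1.04. Highest was NEFL with NKAIN4 (1.38 and 1.51), and lowest GAP43 with ASIC1 (0.62 and 0.87). At 5000 UMIs the median Beta-2-like cell had UMIs of 4 of the 10 genes in each library, and 42.7% and 34.4% of these cells had 5 or more. The median was 3 in GHRH-led cells, where 14.5% and 10.3% had 5 or more, and 2 in MFAP4-led cells, where 1.15% and 1.10% had. Of Beta-2-like cells with NEFL, 98.5% without DOX and 98.7% with DOX also had NEFM, against 79.7% and 75.3% of those without NEFL. LRRTM3 was found in 27.2% and 26.3% of Beta-2-like cells with NEFL and in 15.8% and 14.2% of those without. In GHRH-led cells these values were 20.4% and 17.9% with NEFL and 6.04% and 5.74% without. STMN2, found in nearly all Beta-2-like cells, could differ little there, at 99.4% and 99.6% with NEFL and 97.9% and 98.6% without.

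GAP43 and EPHA5, both high in the GPC3-led cluster, were also read together within the Beta-2-like cluster. The product of their shares was 0.381% of cells without and 0.261% with DOX. That gives fewer expected cells than the minimum used for the pairs above. Of Beta-2-like cells with EPHA5, 13.0% without DOX and 8.56% with DOX had GAP43, against 3.33% and 2.74% of cells without EPHA5, from 23 and 16 cells with both. ASIC1 was found in 24.4% and 33.8% of cells with GAP43 and in 40.3% and 39.0% of those lacking it, from only 20 and 25 cells with both. Before thinning, Beta-2-like cells with NEFL in the library without DOX had a median of 20319 UMIs and those lacking it 16692. With EPHA5 the medians were 19256 and 18803, and with GAP43 17458 and 18960. The part of depth in these pairs was not tested.

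Cells with NEFL held INS RNA, mostly at a lower median than cells of the same cluster without NEFL. Among Beta-2-like cells the median was 783 INS UMIs per 5000 in cells with NEFL and 821 in cells without it in the library without DOX, and 758 and 826 in that with DOX. Among GHRH-led cells it was 1077 and 1276 without DOX and 1054 and 1186 with DOX. In MT1B-led cells it was 897 and 947 without and 900 and 924 with DOX. It was 998 and 1007 without DOX in MFAP4-led cells and turned with DOX, at 968 in cells with NEFL and 933 in cells lacking it. The median of GCG was 1 UMI in all of these groups. In Beta-2-like cells a lower INS median was not particular to cells with NEFL. Cells with NEFM, ASIC1, EPHA5 or GAP43 also had it in both libraries. For NEFM it was 793.5 in cells with and 851 in cells lacking it without DOX, and 787 and 870 with DOX.

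Of the selected genes NEFL differed most between the libraries in Beta-2-like and in pooled Beta-1-like cells, though not in every cluster. In Beta-2-like cells it stood at 784 CPM without and 457 CPM with DOX by the labels, or a log2 ratio of -0.78 (-0.81 to -0.75). It was 1 of 9 selected genes with at least 5 CPM there that were at least 1.5-fold apart, against 1.32% of 10102 genes. In pooled Beta-1-like cells NEFL was at 408 and 222 CPM, a log2 ratio of -0.87 (-0.90 to -0.85), and was 1 of 6 past the same fold, against 0.967% of 9716 genes. The GHRH-led cells took a larger part of the Beta-1-like cells with DOX (3781 of 7307) than without (2237 of 4785), and with each Beta-1-like cluster weighted equally the log2 ratio was -0.92. With another clustering seed, under which 79.5% of the Beta-1-like cells kept that name, the ratio was -0.53 and no selected gene passed 1.5-fold there. NEFL was lower with DOX, with an interval below 0, in 9 of 12 clusters, and higher in the mitochondria-rich cluster alone (0.58, 0.33 to 0.84).

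NEFM moved the same way by less, with 3517 and 2597 CPM in Beta-2-like cells and a log2 ratio of -0.44 (-0.45 to -0.43). It too was lower with DOX in 9 of 12 clusters, and higher in delta-like and duct-like cells. STMN2 and CALB2 ran opposite to the neurofilaments in Beta-2-like and pooled Beta-1-like cells. STMN2 was higher with DOX in 10 of 12 clusters, by a log2 ratio of 0.18 in Beta-2-like and 0.35 in pooled Beta-1-like cells. CALB2 was higher in 7 of 12, by 0.22 and 0.33, and lower in 2, with a log2 ratio of -0.37 (-0.40 to -0.34) in alpha-like cells. LRRTM3 was lower in 4 of 12, by -0.25 (-0.34 to -0.17) in Beta-2-like cells. For EPHA5 the interval held 0 in 10 of 12 clusters. The median log2 ratio of all genes tested was -0.05 in Beta-2-like and 0.01 in pooled Beta-1-like cells.

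CALB1 showed its largest difference in the duct-like cells, where it had 544 CPM without and 196 CPM with DOX, a log2 ratio of -1.47 (-1.61 to -1.33). The duct-like cells were few, 154 and 178. They held 251 and 282 CPM of SOX9, a gene of duct cells. All of these differences are between 2 single libraries, and treatment, library and culture cannot be told apart.

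**Figure D5:**
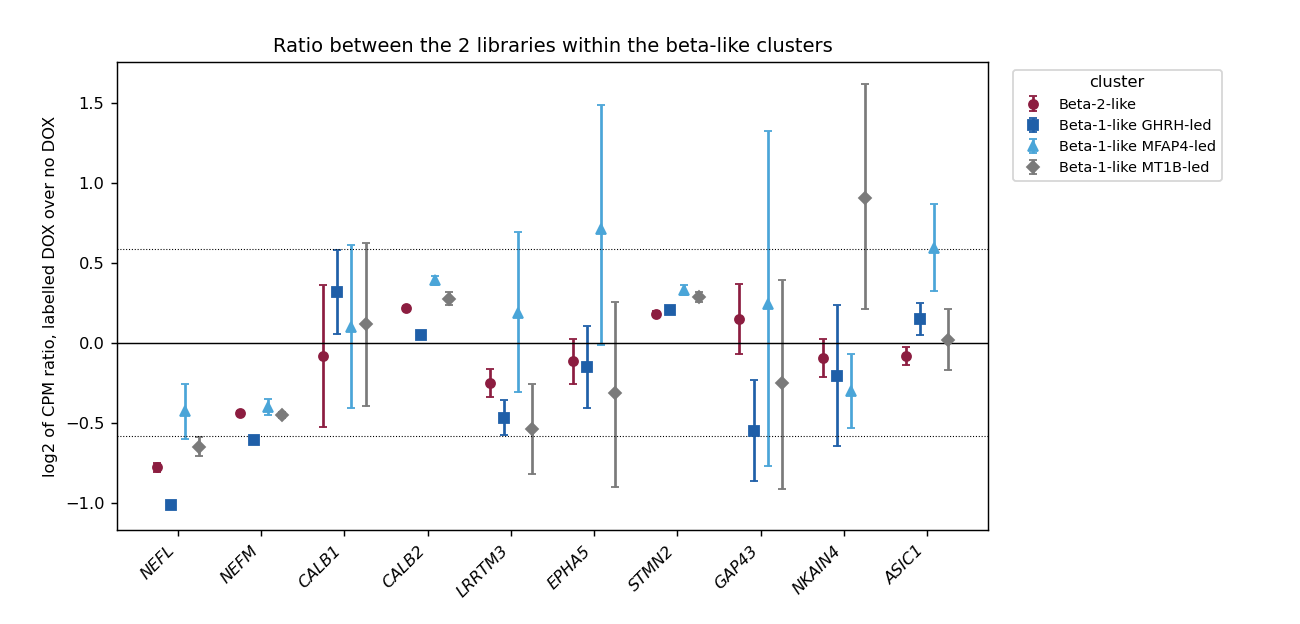
Log2 ratio of CPM with DOX over CPM without DOX, by the labels, for each gene in the 4 beta-like clusters, with exact conditional binomial intervals for counting error. Dotted lines mark 1.5-fold. NEFL lies below 0 in all 4 clusters, from -1.01 to -0.43, and STMN2 above 0 in all 4, from 0.18 to 0.33.

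Other genes of the same families were read from lists that were chosen with earlier results of these data known. The libraries were summed, 2-fold was the limit, and the counts are a description. Of the other cytoskeleton genes of neurofilaments and growth cones, 16 had at least 5 CPM in either group. In Beta-2-like cells 7 of the 16 were at least 2-fold higher than in pooled Beta-1-like cells and none was 2-fold lower. The median log2 ratio was 0.92. Of all genes tested 4.53% were higher and 1.98% lower. The 7 were PRPH, STMN4, DPYSL5, INA, MAPT, TUBA1A and TUBB2B, of which PRPH and MAPT reached 5 CPM in Beta-2-like but not in pooled Beta-1-like cells. Only PRPH and TUBB2B of these were highest in Beta-2-like cells. The beta cell progenitor-like cells had more STMN4 (134 CPM), INA (115.5 against 64.8 CPM), MAPT (12.9 against 8.36 CPM) and TUBA1A (1301 against 1191 CPM). DPYSL5 was at 32.1 CPM in proliferating progenitor-like cells. PRPH, the intermediate filament peripherin, had 10.4 against 0.96 CPM (log2 ratio 3.44), and STMN4, a relative of STMN2, had 110 against 27.6 CPM (1.99). DPYSL5, a collapsin response mediator, had 18.1 against 6.06 CPM (1.58). At the other end MAP2, a dendrite microtubule protein, had a ratio of 0.41 and MARCKS, an actin-binding substrate of protein kinase C, of 0.10. NEFH, the heavy neurofilament chain, was under the minimum, with 2.50 CPM in Beta-2-like cells.

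Of 7 synaptic adhesion and guidance genes other than LRRTM3, 3 were at least 2-fold higher and 1 lower, beside the same 4.53% and 1.98% of all genes. CNTN4 had 21.1 against 4.40 CPM (log2 ratio 2.26), LRRN3 56.4 against 15.4 CPM (1.88) and NRXN2, a neurexin, 31.3 against 11.8 CPM (1.40). Of these CNTN4 reached 5 CPM in Beta-2-like but not in pooled Beta-1-like cells, and NRXN2 was higher in beta cell progenitor-like cells, at 97.0 CPM. FLRT3 was at 0.04. LRRTM4, a relative of LRRTM3, went the other way, with 16.4 against 33.6 CPM (-1.03). Of 8 other Eph receptors and ephrins with at least 5 CPM in either group, 1 was higher and 1 lower, beside the same shares of all genes. EPHA4 was higher (12.7 against 5.36 CPM, 1.25), though alpha-like cells held 24.3 CPM of it. The ephrin EFNA4 was lower (0.59 against 7.51 CPM, -3.66), EFNA4 being among the leading genes of the MFAP4-led cluster. EFNA3 and EFNB3 were at 0.79 and 0.67, and EPHA8 at -0.89. Genes under the minimum were not counted, among them EPHA7 (2.81 against 0.80 CPM, 1.81) and EFNA1 (0.91 against 3.20 CPM, -1.81).

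None of 4 other calcium-binding genes with EF hands passed 2-fold, against 4.53% of all genes higher and 1.98% lower, so that this count is near the background. HPCA was nearest, at 0.90, NCS1 and NCALD lay at 0.04 and 0.03, and SCGN, the islet protein secretagogin, at 0.02. None of 9 other acid-sensing channel, NKAIN and sodium pump genes did either, with NKAIN3 at 0.85, ASIC2 at 0.74, FXYD6 at 0.36, NKAIN1 at -0.28 and the pump subunit ATP1B1 at -0.61. This count too is near the background. Genes under the minimum were not counted, among them NKAIN2 with 2.70 against 0.74 CPM (1.87) and SCNN1B with 0.026 against 0.072 CPM (-1.49). Of 17 genes shared by neurons and endocrine cells, none was higher and 2 were lower, against 4.53% and 1.98% of all genes, so that the lack of higher genes is near the background. The lower 2 were the granule proteins CHGB (148 against 309 CPM, -1.06) and SCG2 (38.4 against 109 CPM, -1.51), and the median of the list was -0.01. UCHL1, ENO2 and SNAP25 were at 0.82, 0.62 and 0.56.

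Markers of neurons were read beside these values. Of 19 neuron-defining genes, 3 reached 5 CPM in either group. SLC17A6, a vesicular glutamate transporter, had 155 CPM in Beta-2-like and 77.3 CPM in Beta-1-like cells (log2 ratio 1.01), GAD2, a glutamate decarboxylase also known from beta cells, 138 and 141 CPM, and RBFOX3 3.36 and 5.21 CPM. The summed level of the 19 was 322 and 284 CPM in Beta-2-like cells without and with DOX. It was 265 and 238 CPM in GHRH-led, 245 and 213 CPM in MT1B-led and 196 and 186 CPM in MFAP4-led cells. For this sum the 4 clusters had the same order as for NEFL. SLC17A6 and GAD2, the highest of the 19 in Beta-2-like cells, did not have this order singly with the libraries summed. SLC17A6 was at 90.01 CPM in MT1B-led and 84.51 CPM in GHRH-led cells. GAD2 was at 148.8 CPM in GHRH-led, 138.1 CPM in Beta-2-like, 136.1 CPM in MFAP4-led and 133.8 CPM in MT1B-led cells. Alpha-like cells, with the lowest NEFL, held 254 and 260 CPM of the 19 markers summed. Between 6 and 10 of the 19 were at 0 in each beta-like cluster and library. CHAT, NEUROD6, TBR1, BHLHE22 and LHX9 were among those at 0 in Beta-2-like cells of both libraries. Of 9 glia and neural crest markers, only MBP and ERBB3 reached 5 CPM, with ERBB3 at 9.05 against 23.7 CPM (-1.39), and the summed level was 64.4 to 90.4 CPM in the beta-like clusters. Of 10 mesenchyme and endothelium markers COL1A2 alone did, and the summed level was 1.92 to 15.5 CPM, highest in MFAP4-led cells. The part of these markers in the levels of the selected genes was not tested.

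The genes most like each selected gene were ranked by Pearson's r of log2(CPM + 1) over 24 points, the 12 clusters in 2 libraries, among 11307 genes. The points share libraries and depth and are not independent, so r is a description. NEFL and NEFM were each other's closest gene (r = 0.97), followed for both by SMYD3 (0.89 and 0.89). RPIA (0.83) came next for NEFL and TTC39C (0.88) for NEFM. CALB2 and STMN2 were likewise each other's closest (0.96), followed by BASP1 (0.90) and FGF12 (0.89) for CALB2 and by CADM3 (0.93) and ASCL2 (0.93) for STMN2. LRRTM3 was nearest to WSCD2 (0.94), GNAT3 (0.92) and SMYD3 (0.91), and ASIC1 to DMRT3 (0.91), GNAT3 (0.91) and C16orf74 (0.90). WSCD2, GNAT3 and C16orf74 are among the leading genes of the Beta-2-like cluster. EPHA5 was nearest to its antisense neighbour EPHA5-AS1 (0.96), SYTL1 (0.94) and STMN4 (0.92). GAP43 was nearest to OVOS2, TRPC7 and PPP1R17 (each 0.95), and CALB1 to ADGRG6, EPHB4 and CPVL (0.96, 0.96 and 0.95). NKAIN4 had no gene above 0.80, with LBH (0.79), HPCA (0.78) and TUNAR (0.77) first. Among the selected genes themselves EPHA5 was near GAP43 (0.84) and LRRTM3 (0.84), while CALB1 was opposite to STMN2 (-0.82).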

How the data were processed

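Single cells of 2 libraries, 1 per condition, were analysed. The deposited values are raw UMI counts for each gene and cell barcode, not normalized by the authors. The file headers name Cell Ranger 3.0.2 and the submitters' processing notes GRCh38 and bustools 0.40.0, while the methods describe kallisto and bustools behind the published clusters. For kallisto the methods name Ensembl transcripts of GRCh38, without a release. The annotation and the use of strand behind the deposited counts are not given in the sources used here. Barcodes under 1000 UMIs were left out, and Scrublet (scanpy 1.11.5) marked 26.6% and 26.5% of them as doublets per library, which were removed. Clustering followed the methods, with 50 principal components, 3 neighbours per library and Leiden at resolution 0.5 (leidenalg 0.10.2), but without the 10 genes. A cluster was named when at least 3 markers of a class, taken from the study's own marker table of these libraries, were 2-fold higher in it and the class had most of its 10 leading genes that are markers. This rule was set after seeing the data. By it the MT1B-led cluster was named from 1 leading gene that is a marker and the MFAP4-led one from 2. The GHRH-led cluster had 4 and the Beta-2-like cluster 8. CPM have exact Poisson, ratios exact conditional binomial and shares exact Clopper-Pearson intervals (scipy 1.17.1). The ratio step was tested on simulated data. Genes named beside the 10 were the 3 highest and 2 lowest ratios of each list and the 3 genes most like each gene. The members and lists were chosen with earlier results of these data known. Positions are those of GENCODE 44 on GRCh38. Scripts used matplotlib 3.10.9, numpy 2.4.6 and pandas 2.3.3.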

Additional observations from a re-analysis of the deposited data

Results flagged for a closer look

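The ratio of CPM with DOX over CPM without DOX, by the labels, had opposite signs in different beta-like clusters, with both intervals clear of 0, for 2 of the 10 genes. NKAIN4 had a log2 ratio of 0.91 (0.21 to 1.62) in the MT1B-led Beta-1-like cells, where it rested on few UMIs, and of -0.30 (-0.53 to -0.07) in the MFAP4-led cells. ASIC1 had a log2 ratio of 0.59 (0.32 to 0.87) in the MFAP4-led cells and of -0.08 (-0.14 to -0.03) in the Beta-2-like cells. The intervals cover counting error only, and with 1 library per condition the differences between clusters were not tested.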

How the results depend on the processing

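With 1 library per condition, no library was left out and no difference was tested. No paired analysis was possible because each condition had 1 library. The settings below changed how cells were clustered, filtered, thinned or averaged or how a fold was called. All were planned except for the 3 Beta-1-like clusters taken alone and the counts without a minimum of 5 CPM, which were added after the data had been seen. Leaving out that minimum changed none of the counts with the Beta-1-like clusters pooled. In each reclustering 1 cluster was Beta-2-like and 1 to 3 were Beta-1-like, and the Beta-2-like cluster held 4203 to 7203 cells.

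The share of Beta-2-like cells with NEFL at equal depth, with both libraries together, was 49.2%. It became 44.5% with the 10 genes among the clustering genes, 47.6% with a minimum of 2000 UMIs, 46.4% with doublets kept, 51.0% with another seed and 45.2% at resolution 0.3. The share with NEFM was 87.5%. It became 84.1% with the 10 genes in the clustering, 86.3% with 2000 UMIs, 84.5% with doublets kept, 86.0% without cells over 20% mitochondrial UMIs, 83.8% with 15 neighbours, 85.8% at resolution 0.3 and 85.4% at resolution 0.8. Depth moved both most, to 39.5% and 79.2% at 2500 UMIs per cell and to 65.2% and 94.7% without thinning.

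The number of genes at least 1.5-fold apart between the libraries was 1 in Beta-2-like and 1 in Beta-1-like cells. It was 2 in Beta-2-like cells with 15 neighbours. In Beta-1-like cells it was 0 with another seed. It was 2 in the GHRH-led cluster alone and 1 in the MFAP4-led and MT1B-led clusters, where that gene was ASIC1 and NEFL. Against the GHRH-led cells alone 3 genes were 2-fold higher in Beta-2-like cells of both libraries.

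Over the planned settings the log2 ratio of Beta-2-like over Beta-1-like cells lay between 0.82 and 2.38 for NEFL (1.01 in the text) and between 0.67 and 1.70 for NEFM, the highest of each with another seed. The ratio of DOX over no DOX for NEFL lay between -0.98 and -0.68 in Beta-2-like cells and between -0.91 and -0.53 in Beta-1-like cells. No log2 ratio whose interval lay on 1 side of 0 changed sign under a planned setting. In the MFAP4-led cells alone the ratio of the libraries was 0.19 (-0.31 to 0.69) for LRRTM3 and 0.24 (-0.77 to 1.33) for GAP43, and against the MT1B-led cells alone the ratio of Beta-2-like cells was 0.16 (-0.18 to 0.49) for CALB1. All 3 were negative with the Beta-1-like clusters pooled, but these intervals hold 0, so no change of direction is shown.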
